A study of Drosophila melanogaster with 6 samples.

Results

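Cyclin G binding was mapped by ChIP-seq in wing imaginal discs of Drosophila melanogaster, and the peaks described here are those that sit on the promoter of exactly 1 gene in the euchromatin of the autosomal arms 2L, 3L and 3R. A peak was taken when it lay on 2L below 21.4 Mb, on 3L below 22.9 Mb or on 3R above 4.2 Mb of the dm6 build and held the annotated transcript starts (TSS) of a single gene. Of the 3363 peaks of the list, 576 lay in these windows, and 224 of them (38.9%) met the rule. Of the other peaks of the windows, 300 held no TSS and 52 held TSS of 2 or more genes. The discs came from female larvae raised at 25 °C. The precipitated discs were +/UAS-CycGΔP; da-Gal4/+, in which a Myc-tagged Cyclin G without its PEST-rich domain was driven in all tissues by da-Gal4 on top of the endogenous gene. The 6 libraries were 2 Myc-CycGΔP ChIP replicates, 1 mock ChIP from da-Gal4/+ discs, which carry the driver but no tagged protein and were read to 50 bp, and the inputs, 2 of the Myc-CycGΔP chromatin and 1 of the mock chromatin. Each ChIP pooled 600 discs.

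The data were the positions of the peaks that the authors retained as reproducible between both Myc-CycGΔP ChIP replicates. The list gives no height, no score and no value per replicate, so no error between replicates can be attached to a peak. Where a share has an interval, it is a 95% Wilson interval with peaks or genes as units, and it covers counting error only. Of the 224 peaks, 222 consisted wholly of 75 bp words (the read length of the Myc-CycGΔP libraries) that occur once in the genome, 1 was at 90.2% and 1, at lncRNA:CR43635, was at 4.64%. Reads cannot be placed with certainty in the last one.

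Promoters of Drosophila fall into broad classes by short sequence elements around the TSS. Genes that most cells express often carry the DNA replication-related element (DRE), the site of the factor Dref, or the elements called Motif 1 (the site of M1BP), Motif 6 and Motif 7. Genes that are regulated in space and time more often carry a TATA box, an initiator or GAGA repeats (the site of the GAGA factor), and ribosomal protein genes typically start in a pyrimidine-rich TCT element. Many genes have several promoters of different kinds, so that 1 gene can be compared with itself. Cyclin G is a transcriptional cyclin whose gene interacts with genes of the Polycomb and trithorax groups and of their cofactors, the ETP genes. Physical interaction is stated in the paper for the ETP proteins Asx and Corto.

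The following sequences run 5′ to 3′ on the strand of the gene, from 80 bases before the TSS to 20 bases after it (dm6). They are shown because each carries an element counted below, in capitals, at a TSS inside a peak. The capitals mark the DRE in the first 3, from Rack1 (2L:7827295-7827395, minus strand), RpS7 (3R:30209000-30209100, minus strand) and osa (3R:17718330-17718430, minus strand).
Rack1: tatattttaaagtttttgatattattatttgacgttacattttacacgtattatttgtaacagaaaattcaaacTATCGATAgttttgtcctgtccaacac
RpS7: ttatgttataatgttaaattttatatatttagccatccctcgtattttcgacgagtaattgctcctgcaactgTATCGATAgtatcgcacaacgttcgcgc
osa: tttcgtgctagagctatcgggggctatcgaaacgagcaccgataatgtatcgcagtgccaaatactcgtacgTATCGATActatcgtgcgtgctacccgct

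Motif 1 is in capitals in Sar1 (3R:22356605-22356705, plus strand) and Meltrin (3R:14697272-14697372, minus strand). Motif 6 is in capitals in Meltrin, where it comes first, and in Ziz (2L:7496287-7496387, minus strand). Motif 7 is in capitals in Spn (3L:2554272-2554372, minus strand).
Sar1: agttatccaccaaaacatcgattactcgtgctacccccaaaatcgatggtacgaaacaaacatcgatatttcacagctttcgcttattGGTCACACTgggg
Meltrin: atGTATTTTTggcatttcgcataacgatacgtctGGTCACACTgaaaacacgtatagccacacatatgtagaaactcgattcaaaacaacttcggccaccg
Ziz: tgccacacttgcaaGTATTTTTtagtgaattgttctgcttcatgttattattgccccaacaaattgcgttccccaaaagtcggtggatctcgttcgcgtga
Spn: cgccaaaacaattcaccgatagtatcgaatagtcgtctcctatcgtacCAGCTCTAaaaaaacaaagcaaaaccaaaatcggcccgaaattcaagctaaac

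The TCT element is in capitals in ATPsynC (3R:31219610-31219710, minus strand) and RpL28 (3L:3222940-3223040, minus strand). The TATA box is in capitals in alphaTub84B (3R:7086519-7086619, plus strand) and Hsc70-4 (3R:15242607-15242707, plus strand), the only members that carry one at the usual distance.
ATPsynC: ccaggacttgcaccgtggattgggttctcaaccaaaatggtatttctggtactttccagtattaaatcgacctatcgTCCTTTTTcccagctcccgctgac
RpL28: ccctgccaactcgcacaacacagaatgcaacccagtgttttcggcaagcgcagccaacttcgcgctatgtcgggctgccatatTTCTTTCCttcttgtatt
alphaTub84B: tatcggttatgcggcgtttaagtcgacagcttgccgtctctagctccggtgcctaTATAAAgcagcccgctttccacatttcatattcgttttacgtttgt
Hsc70-4: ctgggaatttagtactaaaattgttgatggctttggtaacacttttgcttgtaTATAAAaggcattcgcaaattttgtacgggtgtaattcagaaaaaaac

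The 224 peaks marked 224 different genes, and no gene had 2 of them. Of these genes, 223 encode proteins and 1, lncRNA:CR43635, is a non-coding RNA. By arm, 64 peaks lay on 2L, 55 on 3L and 105 on 3R. Of the 8593 protein-coding genes with a TSS in the windows, 2.6% had such a peak, and of the 2102 ncRNA genes 0.0476%. The share of protein-coding genes was 2.57% on 2L (64 of 2489), 2.04% on 3L (55 of 2697) and 3.05% on 3R (104 of 3407). The Wilson intervals of 3L (1.57% to 2.64%) and 3R (2.53% to 3.69%) overlapped only narrowly, and a difference between arms was not tested. The bound genes were long. Their annotated span had a median of 4304 bp over the 223 protein-coding members, against 2103 bp over all 8593 protein-coding genes. They also had more often several promoters, 33% (27.2% to 39.4%) against 22.1% (21.2% to 23%). A gene with more TSS has more chances to meet the rule, and the part of this in both differences was not tested.

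The peaks were short and lay mostly in front of the gene. They were 176 to 1098 bp wide (median 300 bp, quartiles 259 and 346 bp), and 58% measured 250 to 350 bp. Over all 3363 peaks the median was 365 bp. Only 7 were wider than 500 bp. Of all bases under the 224 peaks, 65.5% were intergenic, 25.5% lay in exons of the bound gene, 4.86% in its introns and 4.09% in another gene. A peak reached a median of 218.5 bp upstream and 72.5 bp downstream of the TSS nearest to its centre. With upstream as negative, the centre's median position from that TSS was -74.75 bp (quartiles -102.6 and -48 bp), and the centre was upstream in 220 of 224 peaks (98.2%, 95.5% to 99.3%). The rule asks for a TSS anywhere in the peak and so limits how far the centre can be from it, but not on which side. The exceptions were Rpn10, Faf2, Paip2 and RpS29, named after their values were seen, with centres 25.5, 25, 21.5 and 7.5 bp downstream. In 194 peaks 1 TSS was covered, in 28 peaks 2 and in 2 peaks 3.

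**Figure D1:**
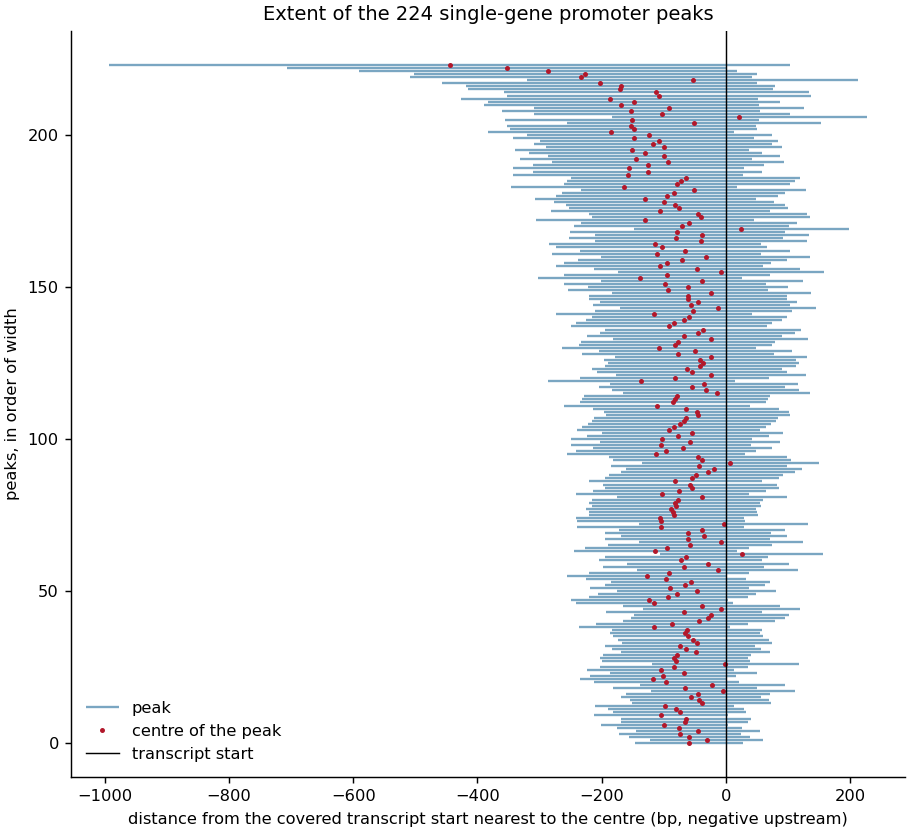
Each line is 1 of the 224 peaks, ordered by width, drawn by its distance in bp from the covered transcript start nearest to its centre (negative is upstream), with the centre as a dot. The centres of 220 peaks lie left of the start, and 9 of the 10 widest peaks have their centre over 100 bp upstream.

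The widest peaks reached far upstream, and 14-3-3epsilon and ATPsynC also reached 213 and 134 bp downstream of the TSS. The peak at lncRNA:CR43635 was 1098 bp (3R:5045844-5046941) and had its centre at -444.5 bp from the TSS. It is the repetitive one named above, and without it the widths ended at 709 bp and the median stayed at 300 bp. Next came CG10011 with 709 bp (3R:28635097-28635805), whose TSS lay 2 bp inside the edge. MCU, the pore of the mitochondrial calcium uniporter, had 609 bp (3L:6550148-6550756), and spg, a guanine nucleotide exchange factor of the Dock family, 553 bp (3R:28844768-28845320). SNF4Agamma, the regulatory gamma subunit of AMP-activated protein kinase, had 552 bp (3R:21155854-21156405).

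The next ones were 14-3-3epsilon, an adaptor that binds phosphorylated proteins, with 534 bp, and Spn, a scaffold of protein phosphatase 1, with 509 bp. Pp1-87B, a catalytic subunit of that phosphatase, had 498 bp. ATPsynC, a subunit of the mitochondrial ATP synthase, and RpS7, of the small ribosomal subunit, had 493 bp each. In 9 of these 10 peaks the centre was over 100 bp upstream of the TSS, the other being 14-3-3epsilon at -53.5 bp. At the narrow end were Pak3, a p21-activated kinase, with 176 bp (3R:16453793-16453968), the ubiquitin ligase gene Trc8 with 183 bp, RpL8 with 196 bp, Rbsn-5, which acts at early endosomes, with 198 bp, and the Hsp90 cochaperone gene p23 with 201 bp.

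Among the genes that the study measured by ChIP-qPCR, Rack1, which encodes a scaffold on the small ribosomal subunit, met the rule. Its peak was 238 bp wide (2L:7827197-7827434), covered 2 TSS and was centred at -0.5 bp from one of them. The peak at RpL7 (2L:10200853-10201180) also held a TSS of Ripalpha and was not a member. The peak at RpL5 lay outside the windows, and no peak of the list held a TSS of CycG itself, on 3R. The paper reports by ChIP-qPCR that Cyclin G was highest at the TSS of these genes, CycG included. It also shows ChIP-seq snapshots of the same genes, CycG included, as examples of genes bound at the TSS. The list used here thus holds no peak at a CycG TSS although the paper reports binding there, and the difference was not examined. Membership turned on a few bases in several places. The next TSS of another gene was 2 bp outside the peak for Vha26 (the gene noi), 3 bp for CG6928 (Pop2), 9 bp for CG32486 (PAN3) and 10 bp for Faf2 (Grip71), each on the opposite strand. It was within 100 bp of the edge for 43 of 224 members. Likewise, the only covered TSS was 1 bp inside the edge for CG8312 and 2 bp for Sgt1, and 25 of the 300 peaks with no TSS had one within 100 bp, the nearest being Top2 at 6 bp. Nearest to the limits of the windows were Hr39 on 2L, CG33169 on 3L and aux on 3R inside, and His-Psi:CR31754, RpL10 and CG41128 outside.

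By function, the list with the highest share of bound genes was that of the cytoplasmic ribosome. The lists below were made by gene symbol and are not complete, so that a share holds for the genes listed, and a list's share is to be read against the 2.6% of all protein-coding genes. No test was made on the lists, and genes of peaks with TSS of 2 or more genes do not count. Of 49 genes of cytoplasmic ribosomal proteins in the windows, 17 were bound (34.7%, 22.9% to 48.7%), 11 of the large and 6 of the small subunit. The widest peaks were those of RpS7 (493 bp), RpL23A (385 bp), RpL28 (376 bp) and RpS4 (374 bp). With any peak over a TSS of the gene, whatever else it covers, the number was 22 of 49.

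Other steps of protein synthesis had few members. Of 31 translation factor genes 3 were bound, namely eIF4A, the RNA helicase of the cap-binding complex, eIF4E1, its cap-binding subunit, and eIF3d1, of the complex that recruits the small subunit (9.68%, 3.35% to 24.9%). Of 22 aminoacyl-tRNA synthetase genes 1 was bound, beta-PheRS. No member was found among 22 genes of ribosome biogenesis, which allows a share of up to 13.6%, nor among 49 genes of mitochondrial ribosomal proteins, which allows up to 6.12%. With any peak over a TSS, the number was 0 of 22 and 3 of 49. In the proteasome list 3 of 29 genes of the regulatory particle and core were bound, Rpn1, Rpn9 and Rpn10, all of the regulatory particle (10.3%).

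In chromatin and transcription, 4 of 23 genes of the Polycomb, trithorax and ETP list were bound (17.4%, 6.98% to 37.1%). They were osa and mor, subunits of the Brahma remodelling complex, with 472 bp (3R:17718262-17718733) and 370 bp (3R:15972886-15973255), trx, a histone methyltransferase, with 268 bp (3R:14286830-14287097), and Pc, the chromodomain subunit of PRC1, with 258 bp (3L:21317948-21318205). Of 63 listed genes of general transcription factors, RNA polymerases and Mediator, 6 were bound (9.52%, 4.44% to 19.3%), with the widest peaks at MED19, TfIIS, Polr2F and Taf1. Of 38 splicing genes 3 were bound, snRNP-U1-70K of the U1 particle, Srrm1 and Sf3a1.

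Signalling, cell cycle and ubiquitin genes had shares between 14.8% and 16.2%, with wide intervals. Of 54 genes on the list of signalling kinases and their subunits, 8 were bound (14.8%, 7.7% to 26.6%), the widest at SNF4Agamma (552 bp), nmo, the Nemo kinase (401 bp), Pvr, the receptor of PDGF and VEGF type (374 bp), and Pka-C1, the catalytic subunit of protein kinase A (353 bp). Of 37 listed ubiquitin genes 6 were bound (16.2%, 7.65% to 31.1%), the widest at Diap1, the main inhibitor of apoptosis (359 bp), Su(dx), a ligase that acts on Notch (327 bp), Cbl (310 bp) and Ubc6 (309 bp). Of 39 cell cycle genes 6 were bound (15.4%, 7.25% to 29.7%), the widest at mad2, of the spindle checkpoint (338 bp), CSN6 (318 bp), CycY (317 bp) and Cdk2 (303 bp). Of these, peaks of at least 365 bp, the median of the whole list, were found at 3 of the 54 kinase genes and at 0 of the ubiquitin and cell cycle genes, and such peaks were at 5 of the 49 ribosomal protein genes.

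The share was lower in most other lists. Oxidative phosphorylation had 4 of 52 genes, ATPsynC, RFeSP, UQCR-Q and COX8 (7.69%, 3.03% to 18.2%). Growth control through insulin, TOR and Hippo had 2 of 33, the polarity gene scrib and kibra, an upstream regulator of Hippo signalling. Vesicle traffic had 2 of 72, Sar1, the GTPase of COPII coats, and Syx1A. A single listed gene was bound in each of DNA replication (PolA1, of 24), nuclear transport (emb, the exportin gene, of 19), autophagy and lysosome (Vha26, of 21), chaperones (Hsc70-4, of 33) and cytoskeleton (alphaTub84B, of 33). The lists leave out members of the same kinds, such as TfIIA-L and TfIIA-S, subunits of the general factor TFIIA, VhaPPA1-1 of the V-ATPase, and p23 and Trc8 above (all named here after their values were seen), which therefore count in no list.

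No gene of the wing patterning list was bound (0 of 31, which allows up to 9.68%). None was bound either in 9 lists of genes with restricted expression, 325 genes together, which allows a share of up to 0.923%. These were the chemosensory receptors and odorant binding proteins, cuticle proteins, cytochromes P450, and markers of muscle, fat body, haemocytes, trachea, neurons and the male germline. Of the 224 member genes, 70 were on at least 1 of the 30 lists.

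**Figure D2:**
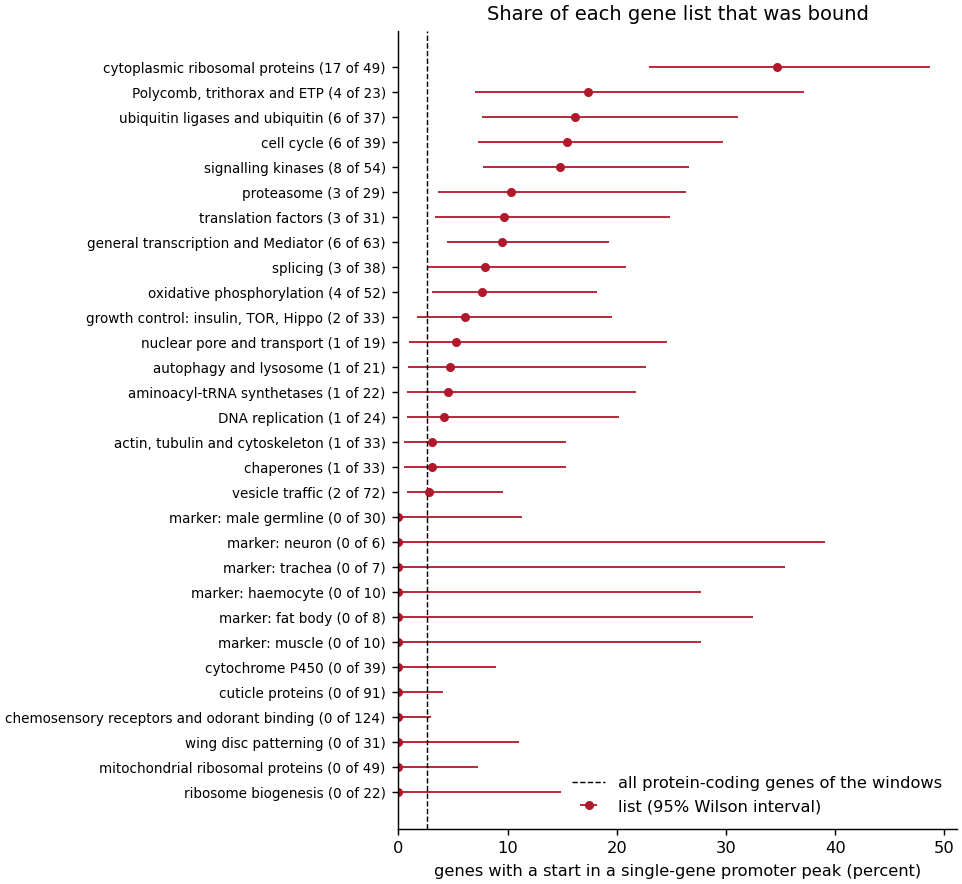
Percent of the protein-coding genes of each list in the windows that had a single-gene promoter peak, with 95% Wilson intervals; the dashed line is the 2.6% of all protein-coding genes. Cytoplasmic ribosomal proteins lie highest with 34.7%, and 12 of the 30 lists have no bound gene.

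The genes with several promoters showed which of their promoters lay under a peak. TSS of a gene within 100 bp of each other were joined into 1 promoter, and a promoter was called used when a peak of the list held one of its TSS and skipped when none did. Transcription was not measured in these libraries, so used refers to a peak only. Of the 224 genes, 150 had 1 promoter and 74 had several (44 with 2, 20 with 3 and 10 with 4 or more). In 71 of the 74 genes exactly 1 promoter was used. In the other 3, 14-3-3epsilon, Der-1 and Jasper, named after their values were seen, both promoters lay within 1 peak, 155 to 158 bp apart. No gene of the 74 had peaks at 2 separate promoters. Together they had 203 promoters, of which 77 were used (37.9%).

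The used promoter was mostly the one farthest 5′. The 5′-most promoter was used in 56 of 74 genes (75.7%, 64.8% to 84%), which include the 3 genes with both promoters in the peak. With 1 promoter used, it was the 5′-most in 53 of 71 genes, namely in 29 of 41 genes with 2 promoters and in 24 of 30 genes with 3 or more, where 4 used an internal and 2 the 3′-most one. Of the 71 genes with 1 promoter used, 48 had a single promoter with the most annotated transcripts, and it was the used one in 39 of them (81.2%, 68.1% to 89.8%). In 19 others all promoters tied. Still, more than 50% of the transcripts started at the used promoter in only 37 of 74. Of the 126 skipped promoters 21 lay upstream of the used one. The distance between a skipped and the used promoter had a median of 2340 bp and ranged from 126 to 85355 bp.

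SNF4Agamma had the most promoters, 9, and its peak was on the third from the 5′ end, from which 3 of its 16 transcripts start. Its skipped promoters lay between -15623 and 52116 bp of the used one, 2 of them upstream. Rtnl1, a reticulon of the endoplasmic reticulum, Zip99C, a metal ion transporter, and bun, a transcriptional regulator of the TSC22 family, had 7 promoters each and a peak on the first. The farthest skipped promoter was 14238 bp away in Rtnl1, 3383 bp in Zip99C and 85355 bp in bun, the longest distance of all. Diap1 had 5 promoters with the peak on the first and skipped ones 363, 4188, 8464 and 10499 bp downstream.

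Of the 5 genes with 4 promoters, the peak lay on the first in Hsc70-4, a constitutive Hsp70 chaperone, in cindr, an adaptor of the CIN85 family, in gro, the Groucho corepressor, and in siz, an exchange factor for Arf GTPases. In Ogdh, a subunit of the oxoglutarate dehydrogenase complex, it lay on the second. After bun and SNF4Agamma, the longest distances were 43131 bp in Wdr62, a protein of the spindle poles, 40474 bp in cic, the Capicua repressor, and 33353 bp in siz, all with the first promoter used.

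**Figure D3:**
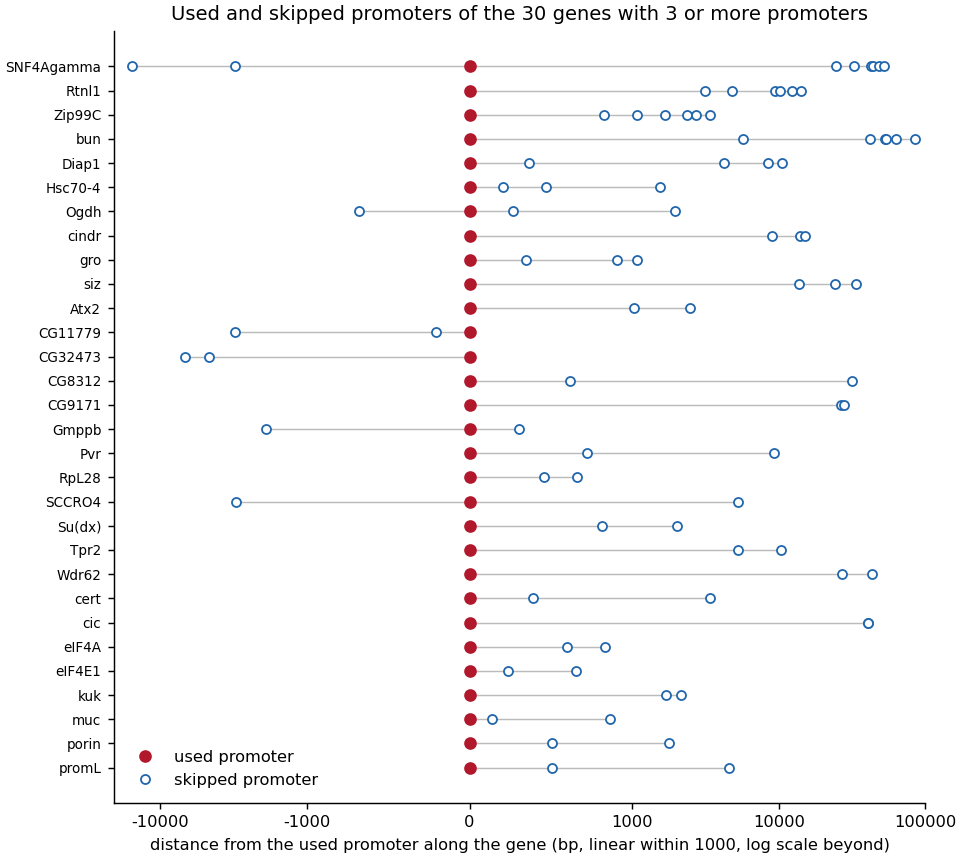
Promoters of the 30 genes with 3 or more promoters, placed by their distance in bp from the used one along the gene (linear within 1000 bp, log scale beyond; negative is upstream). Filled dots are used and open dots skipped promoters, and in 24 of the 30 genes all skipped ones lie downstream.

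Used and skipped promoters of the same gene differed in their elements. The comparison took 52 genes with a skipped promoter at least 500 bp from every peak, and in each gene the covered TSS and the skipped TSS with the most transcripts. The elements were searched within 100 bp on each side of the TSS on both strands: the DRE as TATCGATA, Motif 1 as GGTCACACT, Motif 6 as GTATATTT or GTATTTTT, Motif 7 as CAGCNCTA, CAGCNCTG, CATCNCTA or CATCNCTG, and the E-box CAGCTG and the repeat GAGAGA likewise. The initiator (TCANTN, with G or T as the first N and C or T as the last) and the TCT element (CTTT with 2 pyrimidines on either side) were searched on the gene's strand within 10 bp of the TSS, also the initiator with a downstream promoter element. The TATA box (TATAAA) was searched 20 to 40 bp upstream. A match is only a match of letters.

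The DRE was at 13 used TSS and at 0 of the skipped ones in these 52 genes (exact McNemar test, two-sided, p = 0.000244, adjusted p = 0.00244 over 10 elements). Motif 1 was at 7 used and 0 skipped TSS (exact McNemar, adjusted p = 0.043), and Motif 7 at 15 used and 5 skipped ones, in 13 genes at the used TSS alone and in 3 at the skipped one alone (exact McNemar, adjusted p = 0.043). The opposite held for the initiator, at 1 used and 13 skipped TSS (exact McNemar, adjusted p = 0.00916), and for GAGA, at 1 used and 9 skipped ones (exact McNemar, adjusted p = 0.043). Motif 6 (3 used, 4 skipped), the E-box (5 and 5), TCT (1 and 3), TATA (1 and 0) and the initiator with a downstream element (0 and 1) did not pass the test.

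The DRE passed with the 5′-most TSS and with 50 or 150 bp on each side, and the initiator with the 5′-most TSS, the one setting that can change it. Leaving out peaks in which under 90% of the 75 bp words occur once removed none of the 52 genes. Motif 1 missed it with 50 bp on each side (exact McNemar, adjusted p = 0.0781), Motif 7 with 150 bp (adjusted p = 0.0618), and GAGA with 50 bp (adjusted p = 0.833) or with the 5′-most TSS (adjusted p = 0.141).

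**Figure D4:**
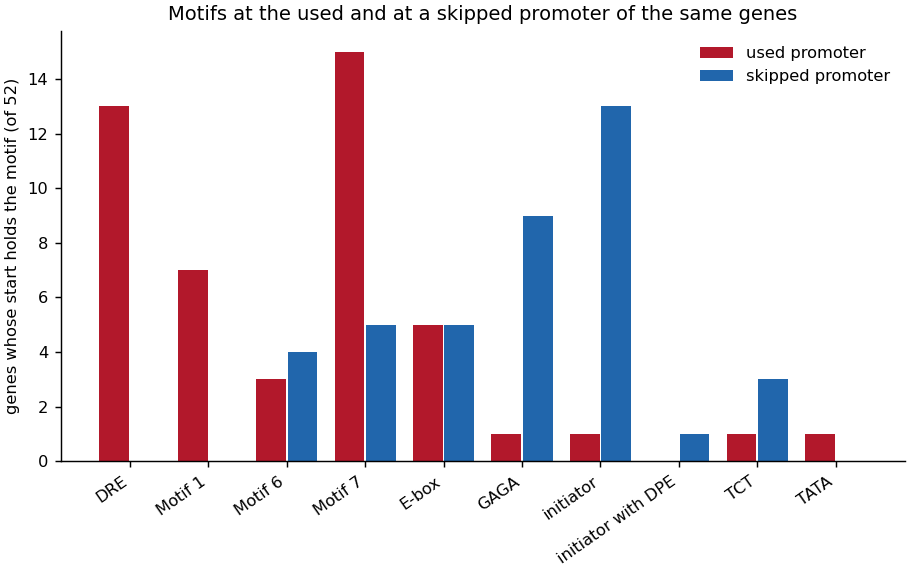
Number of genes, of 52, whose used (left bars) and skipped (right bars) TSS holds each element. DRE (13 against 0), Motif 1 (7 against 0) and Motif 7 (15 against 5) stand at used, GAGA (1 against 9) and the initiator (1 against 13) at skipped promoters.

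In pairs of used and skipped promoters from the genes with the most promoters, the elements can be read directly. In Diap1 the used promoter (3L:16051014-16051114, minus strand) holds 2 DREs, at -79 and -58 bp, and Motif 1 on the other strand, at -25 bp, in capitals. In the printed stretch of the skipped one (3L:16046826-16046926, minus strand) none of the elements is found at the distances searched. The initiator letters TCAGTT stand near its end, with the A just outside the 10 bp allowed, and were not counted. A GAGA match begins just before the stretch, at -98 bp. In Zip99C the used promoter (3R:29868875-29868975, minus strand) holds a DRE at -67 bp and the skipped one (3R:29868051-29868151, minus strand) none.
Diap1 used: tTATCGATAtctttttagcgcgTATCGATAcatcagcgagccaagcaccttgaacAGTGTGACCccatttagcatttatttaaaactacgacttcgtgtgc
Diap1 skipped: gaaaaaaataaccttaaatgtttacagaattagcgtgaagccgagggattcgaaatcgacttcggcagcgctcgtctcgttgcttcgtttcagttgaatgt
Zip99C used: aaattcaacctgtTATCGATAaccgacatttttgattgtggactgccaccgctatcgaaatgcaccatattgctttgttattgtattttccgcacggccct
Zip99C skipped: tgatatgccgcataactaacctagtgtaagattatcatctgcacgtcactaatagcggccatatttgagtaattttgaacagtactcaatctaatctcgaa

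In bun the used promoter (2L:12546591-12546691, minus strand) holds Motif 1 on the other strand, and the skipped one (2L:12504812-12504912, minus strand) GAGA on the other strand and a pair of overlapping initiators. SNF4Agamma lacks all of these elements at its used promoter (3R:21156282-21156382, plus strand), while its skipped promoter (3R:21199101-21199201, plus strand) holds a GAGA run on the other strand and a pair of initiators, in capitals, with a downstream element for at least 1 of them. It also matched TCT, and Motif 6 and Motif 7 outside the printed stretch.
bun used: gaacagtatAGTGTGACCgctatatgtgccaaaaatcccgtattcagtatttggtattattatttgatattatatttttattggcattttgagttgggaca
bun skipped: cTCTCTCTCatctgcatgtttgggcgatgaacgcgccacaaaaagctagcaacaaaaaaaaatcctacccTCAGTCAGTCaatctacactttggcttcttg
SNF4Agamma used: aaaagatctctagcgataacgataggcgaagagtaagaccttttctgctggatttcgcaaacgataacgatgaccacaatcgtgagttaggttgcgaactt
SNF4Agamma skipped: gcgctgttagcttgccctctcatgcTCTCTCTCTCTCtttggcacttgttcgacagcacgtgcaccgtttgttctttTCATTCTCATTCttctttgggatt

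The order of promoters along the gene moved with this difference, since the used promoter was the 5′-most in 40 of the 52 genes. In the other 12 genes, in which a skipped promoter lay further 5′, the DRE was at 2 used and 0 skipped TSS and the initiator at 0 used and 3 skipped ones. Among 1785 protein-coding genes of the windows with several promoters and no peak at any TSS, the DRE was at 6.11% of the 5′-most promoters and 2.35% of the later ones, and the initiator at 14.9% and 17.3%. In the 40 genes with the 5′-most promoter used, the DRE was at 11 used and 0 skipped TSS and the initiator at 1 and 10. Over all 52 genes, whatever the order, the DRE was at 25% of used against 0% of skipped TSS, and the initiator at 1.92% against 25%. The part of promoter order in the difference was not tested.

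Over all 224 members, with 1 TSS each, 60.7% held a DRE, Motif 1, Motif 6 or Motif 7 (136 of 224, 54.2% to 66.9%), against 29.8% of the TSS of all 8593 protein-coding genes. An initiator or a TATA box was held by 13 of 224 (5.8%, 3.42% to 9.67%), against 20.3% of all genes. Neither kind nor TCT was found in 79 of 224 (35.3%). Singly, Motif 7 was at 65 TSS (29%, against 15.2% of all genes), the DRE at 42 (18.8%, against 7.05%), Motif 6 at 36 (16.1%, against 8.25%) and Motif 1 at 35 (15.6%, against 5.27%). The E-box was at 21 (9.38%, against 14.1%), GAGA at 7 (3.12%, against 8.24%), the initiator at 11 (4.91%, against 14.2%) and the TATA box at 2 (0.893%, against 7.84%). The members are part of all genes, and these shares are given as a description with no test.

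Of the 42 members with a DRE 16 also had Motif 7, which was at 29% of all members. Of the 35 with Motif 1, 13 also had Motif 6, which was at 16.1% of all members, and neither overlap was tested. The DRE was in RpS7, Zip99C and osa among the widest peaks, Motif 1 in CG6966, Sar1 and Meltrin, Motif 6 in MCU, Ziz and Meltrin, and Motif 7 in Spn, l(3)73Ah and CG10616. The E-box was in spg, CG6966 and nsl1, GAGA in nmo, RpL28 and lace, and the initiator in MCU, RpL23A and Pka-C1. Pka-C1 was the only member whose initiator had a downstream element.

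TCT was at 8 TSS (3.57%, against 1.02% of all genes), and 7 of these 8 belonged to ribosomal protein genes. The widest were ATPsynC, the exception, RpL23A and RpL28. Without the ribosomal protein genes the share was 0.483% (1 of 207). Among the ribosomal protein genes themselves TCT was in 7 of the 17 bound (41.2%) and in 16 of the 27 with no peak at a TSS (59.3%), and the DRE in 6 of 17 (35.3%) and 5 of 27 (18.5%). Their peaks had a median of 310 bp, against 300 bp for the other 207 members.

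The DRE and Motif 6 lay mostly upstream of the TSS, as the centre of the peak did. The DRE began at a median of -40.5 bp from the TSS (upstream in 34 of 42 members), and its nearest match lay closer to the peak's centre than the TSS did in 29 of 42. Its median distance to the centre was 43.75 bp, against 82.25 bp for the TSS of the same members. Motif 6 began at a median of -47.5 bp and was closer to the centre than the TSS in 27 of 36. Motif 1 began a median of 0 bp from the TSS and was closer than the TSS in 11 of 35. Only matches within 100 bp of the TSS entered, and the centres were mostly upstream. A match upstream of the TSS is then often closer to the centre, so these counts say little beyond the side. At the median the DRE began at -40.5 bp from the TSS and lay 43.75 bp from the centre, not clearly nearer to either. Widths hardly differed by element, with medians of 300.5 bp with and 300 bp without a DRE, 316 and 297 bp for Motif 1, and 286 and 303 bp for Motif 7.

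The members were compared with the most like peaks, the 52 of the same windows with TSS of 2 or more genes and the 108 of X euchromatin (below 22 Mb) with TSS of 1 gene. No element passed the test of a difference from either set (Fisher's exact test, two-sided, 20 comparisons, smallest p = 0.228, 0 with an unadjusted p under 0.05, all with an adjusted p of 1). The DRE was at 18.8% of members (14.2% to 24.4%), against 17.3% (9.38% to 29.7%) of the peaks with several genes and 23.1% (16.2% to 31.9%) of the X peaks. The wide intervals of both sets leave room for differences of this size. The initiator was at 4.91% of members, against 0 of 52 peaks with several genes, which allows a share of up to 5.77%, and 3.7% of the X peaks. The median width was 300 bp for members, 300 bp for peaks with several genes and 326.5 bp for X peaks. The centre was upstream of the nearest TSS in 98.2% of members, in 92.3% of the peaks with several genes and in 90.7% of the X peaks.

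**Figure D5:**
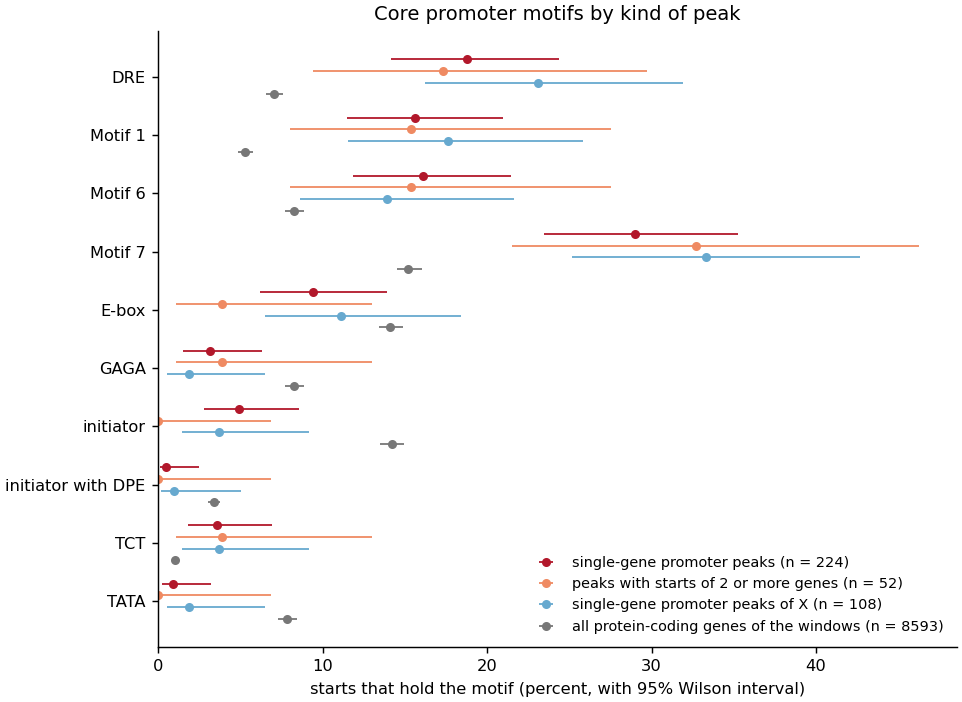
Percent of TSS that hold each element, with 95% Wilson intervals, for the 224 single-gene promoter peaks, the 52 peaks with TSS of 2 or more genes, the 108 X peaks and all 8593 protein-coding genes of the windows. The 3 kinds of peak overlap at every element, and members lie above all genes for DRE, Motif 1, Motif 6, Motif 7 and TCT.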

How the data were processed

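The authors aligned filtered reads to dm6 with Bowtie2 (2.1.0) and called peaks with MACS2 (2.1.0) for each ChIP replicate against its input. They kept peaks reproducible by the irreproducible discovery rate and merged overlapping ones with bedtools. The deposited values are therefore positions only (sequence, start and end, with no other unit), joined over both replicates. The mock ChIP and the read numbers were not used here, and no depth is known behind a peak. Reads of 75 bp cannot be placed with certainty where the same 75 bp occur elsewhere in the genome. Words of 75 bp were therefore counted over the whole genome.

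The annotation was that of Ensembl, release 115 (FlyBase 6.54, dm6), which is later than the one of the study, and sequences from the RefSeq copy of dm6. The arm lengths of both were the same. Coordinates count from 1. Numbers were computed in Python 3.11.15 (numpy 2.4.6, scipy 1.17.1, statsmodels 0.14.6, matplotlib 3.10.9), and the code was tested on simulated sequences and tables. Used and skipped TSS were compared with the exact McNemar test and kinds of peak with Fisher's exact test, both two-sided with Benjamini-Hochberg adjustment and a threshold of 0.05. Where a count was 0, the limit is 3 counts of the total.

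The members, lists and elements were chosen with earlier results of these data known. Named were Rack1 and RpL7, the 10 widest and 5 narrowest peaks, up to 4 genes per list by width (all where 5 or fewer were bound), the 10 genes with the most promoters, the 5 with the longest distances, 3 per element by width, and members nearest to the limits. Others are marked as named afterwards.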

Additional observations from a re-analysis of the deposited data

How the results depend on the processing

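No paired analysis was possible because the list joins both ChIP replicates and gives no value per replicate; for the same reason no replicate could be left out. With peaks at or above the median width of the whole list (365 bp), 41 members were left, and the 5′-most promoter was used in 92.3% of their genes with several promoters (13 genes). The share of centres upstream was 99.6% with the 3′-most covered TSS and 99.5% for members with a single covered TSS. With TSS joined within 300 bp, 100% of the genes with several promoters had a skipped one, against 95.9%. With 50 bp on each side of the TSS, 3 in place of 5 elements differed between used and skipped promoters. Fewer peaks entered by construction in the first and fewer bases in the last of these. Taking the 3′-most covered TSS can only move the centre's position from the TSS upstream. Joining within 300 bp merged both promoters of 14-3-3epsilon, Der-1 and Jasper, the genes with none skipped, which thus left the set. For members with a single covered TSS the cause was not tested. In 34 other cases the main values stayed within their limits of change, and of the values for single elements, lists or genes 4 lost the threshold and 19 moved. Direction changed for Motif 6, which never passed the test, with used minus skipped promoters at -1.92 percentage points but 1.93 with 50 bp and 2 with 150 bp. The E-box, at 0, gave 5.77 and -3.9 points. Of the 19, 9 were lists, which with peaks of at least 365 bp fell to 0% for the ubiquitin, cell cycle, proteasome and general transcription lists, 5.56% for kinases and 10.2% for cytoplasmic ribosomal proteins. Requiring the TSS 50 bp inside both edges left 185 members, 165 of them shared with the 224, and allowing it 50 bp outside gave 215, 201 of them shared. With ATCGAT for the DRE, its share was 37.5% of members, against 17.2% of all genes. Widths and positions depend on the authors' peak calling, and the counts of 0 are limited by list size.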

Other observations

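The 5 bases TATCG, which stand at either end of the DRE on opposite strands, were frequent in the printed promoters also where no full DRE was found, and were then counted, so the choice was made after seeing the sequences. Within 100 bp of the TSS, on either strand, TATCG was found at 144 of 224 members (64.3%, 57.8% to 70.3%), against 38.1% of all 8593 protein-coding genes of the windows. Among the 182 members without a DRE it was found at 102 (56%, 48.8% to 63.1%), against 33.4% of all genes without a DRE. In the 52 genes compared between promoters it was at 32 used and 12 skipped TSS, and 3 or more copies were at 19 used TSS and 1 skipped TSS. These counts include TSS with a DRE, which holds TATCG on both strands. Without those TSS it was at 19 of 39 used (48.7%) and 12 of 52 skipped TSS (23.1%). The peaks with TSS of several genes had it at 63.5% and the X peaks at 67.6%. These shares are values without a test.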
